A study of Mus musculus with 8 samples.

Results

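The flow-sensing pathway that ends in the transcription factors KLF2 and KLF4, together with the cerebral cavernous malformation (CCM) complex that restrains it, is represented here by 9 genes: Klf2, Klf4, Mapk7, Map2k5, Map3k3, Piezo1, Krit1, Ccm2 and Pdcd10. They were chosen by their known role in the pathway, with earlier results of these data known, and make up 9 of the 19505 genes with a symbol on the arrays. All 9 were measured by 1 probe set each, with mean levels above the median of all probe sets.

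Lung endothelial cells (EC) were taken from C57BL\6N mice that had been 8 weeks old at the subcutaneous injection of LLC cells, a mouse lung carcinoma line. The mice were given AB-Tie1-39, an antibody that blocks the endothelial receptor TIE1 (4 arrays), or control IgG (4 arrays), in both cases into the peritoneum 2 times per week while the primary tumor was in place. EC were sorted as CD31+ CD45- LYVE1- PDPN- Ter119- DAPI- cells and their RNA was hybridized on Clariom S mouse arrays, 1 array per biological replicate. All mice carried a tumor. The paper reports that this antibody marginally slowed the growth of LLC primary tumors, so tumor load may differ between the groups. Its effect on the lung cannot be told apart from that of the antibody here, and an untreated or tumor-free group was not analysed. The titles of all 4 AB-Tie1-39 arrays name TIE1, whereas the antibody field of 3 of them names another TIE number, and the groups follow the titles. The labels do not say whether the replicates were handled on different days, so p-values measure the spread between these samples.

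Blood flowing over the endothelium opens PIEZO1, a mechanically gated cation channel. Flow also activates a kinase cascade in which MEKK3 (gene Map3k3) phosphorylates MEK5 (Map2k5), and MEK5 phosphorylates ERK5 (Mapk7). ERK5 activates MEF2 factors, which bind the promoters of Klf2 and Klf4. KLF2 and KLF4 then raise genes that keep vessels quiescent and unclotted, such as Nos3 and Thbd. KRIT1, CCM2 and PDCD10 form a complex that binds MEKK3 through CCM2 and holds the cascade back, and loss of any of them in brain endothelium raises KLF2 and KLF4 and gives cavernous malformations.

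The promoters of the 2 transcription factors are printed because they are the end point of the cascade and differ in a search for the MEF2 consensus word. Both are the 250 bases before the start of the gene in RefSeq, build GRCm38.p6, Klf2 at chr8:72318812-72319061 on the plus strand and Klf4 at chr4:55532476-55532725 on the minus strand. Capitals mark the MEF2 consensus word and a CACCC box, the kind of element that KLF proteins bind, which lies on the other strand and therefore reads GGGTG here.
Klf2: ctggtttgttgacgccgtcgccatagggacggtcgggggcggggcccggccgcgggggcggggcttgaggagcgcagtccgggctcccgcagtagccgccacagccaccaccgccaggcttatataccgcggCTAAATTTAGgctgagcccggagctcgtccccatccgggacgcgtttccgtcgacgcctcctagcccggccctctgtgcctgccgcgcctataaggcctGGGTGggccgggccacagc
Klf4: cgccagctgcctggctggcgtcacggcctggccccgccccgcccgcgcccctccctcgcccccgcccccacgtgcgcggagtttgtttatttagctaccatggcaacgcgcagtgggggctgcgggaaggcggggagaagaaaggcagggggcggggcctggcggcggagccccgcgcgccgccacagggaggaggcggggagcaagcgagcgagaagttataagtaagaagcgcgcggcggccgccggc
In Klf2 the word CTAAATTTAG began 118 bases before the start, and the CACCC box began 19 bases before it. The Klf4 window held neither. The MEF2 consensus, searched on both strands, was present in 1 of the 9 genes, against 2.919% of all 32851 promoter windows (3.415% of 27025 genes). CACCC, also searched on both strands, was present in 4 of the 9 genes (Klf2, Mapk7, Piezo1 and, for 1 of its 2 starts, Ccm2), against 52.01% of all windows (54.53% of genes). A match in the letters does not say that a factor binds there, and a window without a match does not say that none binds the promoter.

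The arrays had closely similar median intensities of 184 to 190. The deposited hybridization controls (16 probe sets for spiked transcripts) divided them into 4 low arrays, AB-Tie1-39 replicates 3 and 4 and IgG replicates 1 and 2, at 10.12 to 10.24 on the log2 scale, and 4 high arrays at 10.52 to 10.80. Either side of this split held 2 arrays of each group, and the differences are also given within it. Each side sets replicates 3 and 4 of a group against replicates 1 and 2 of the other, so within these sides treatment and replicate number cannot be told apart. The labels' treatment text speaks of liver, whereas the source is given as lung. Lung EC markers averaged 11.35 to 11.47 (log2) in AB-Tie1-39 arrays and 11.38 to 11.42 in IgG arrays, and the 6 markers of liver sinusoidal EC averaged 8.00 to 8.10 in AB-Tie1-39 arrays and 8.02 to 8.18 in IgG arrays, beside a median of 7.54 over all probe sets. Of these 6, Gata4, Oit3 and Lyve1 lay above that median and Stab2, Clec4g and Fcgr2b below it. Lyve1, whose product was used to leave cells out of the sort, averaged 12.00 in AB-Tie1-39 arrays and 11.96 in IgG arrays. Lists of other cells differed in their means: 7 of 8 markers of alveolar type 2 cells had a higher mean in AB-Tie1-39 arrays (list mean 8.95 to 9.52, against 8.61 to 9.11 in IgG arrays), as did 4 of 4 markers of airway epithelium (7.24 to 7.69, against 6.98 to 7.29), 5 of 7 lymphatic EC markers had a lower one (9.02 to 9.09, against 9.14 to 9.51), and so had 4 of 5 platelet markers (8.77 to 8.97, against 8.83 to 9.40). Means were also lower for 7 of 8 markers of T and NK cells (6.62 to 6.76, against 6.76 to 6.90), 3 of 3 of B cells and 2 of 2 of erythroid cells. They were higher for 4 of 5 markers of neutrophils and 5 of 7 of pericytes and smooth muscle. Of all probe sets, 51.8% had a lower and 48.2% a higher mean. Of 7 macrophage and monocyte markers, 4 had a higher and 3 a lower mean (6.90 to 7.00, against 6.95 to 7.09). Among them was Mrc1 with a difference of -0.65 and no overlap between the groups, as in 3.17% of all probe sets. Of the 7 lymphatic EC markers, 4 did not overlap either. These were Prox1, Mmrn1, Ccl21a and Reln, with differences of -0.40, -0.82, -0.60 and -0.48, while 2 of the 7 had a higher mean. The groups were also separate for 1 platelet marker (Pf4, -0.30) and 1 airway marker (Scgb3a2, 0.35). The part of these cells in the values below was not tested. In sorted bulk RNA, fewer cells of a type and less RNA per cell cannot be told apart.

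Differences of the 9 genes (AB-Tie1-39 minus IgG, log2) lay between -0.22 for Krit1 and 0.11 for Map3k3, with a median of -0.01. Over all 22204 probe sets the median was -0.0045, and the median size of the difference, regardless of sign, was 0.069. Of the 9 genes, 4 had a higher and 5 a lower mean in AB-Tie1-39 arrays (48.2% and 51.8% of all probe sets). None passed an adjusted limma p of 0.05, as was the case for all probe sets (0%), among which the smallest adjusted p was 0.344. At an unadjusted limma p under 0.05, 1 of the 9 was lower, Krit1, and none was higher, beside 3.15% of probe sets lower and 2.17% higher. Krit1 and Map3k3 did not overlap between the groups, 2 of 9 genes, beside 3.17% of probe sets.

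**Figure D1:**
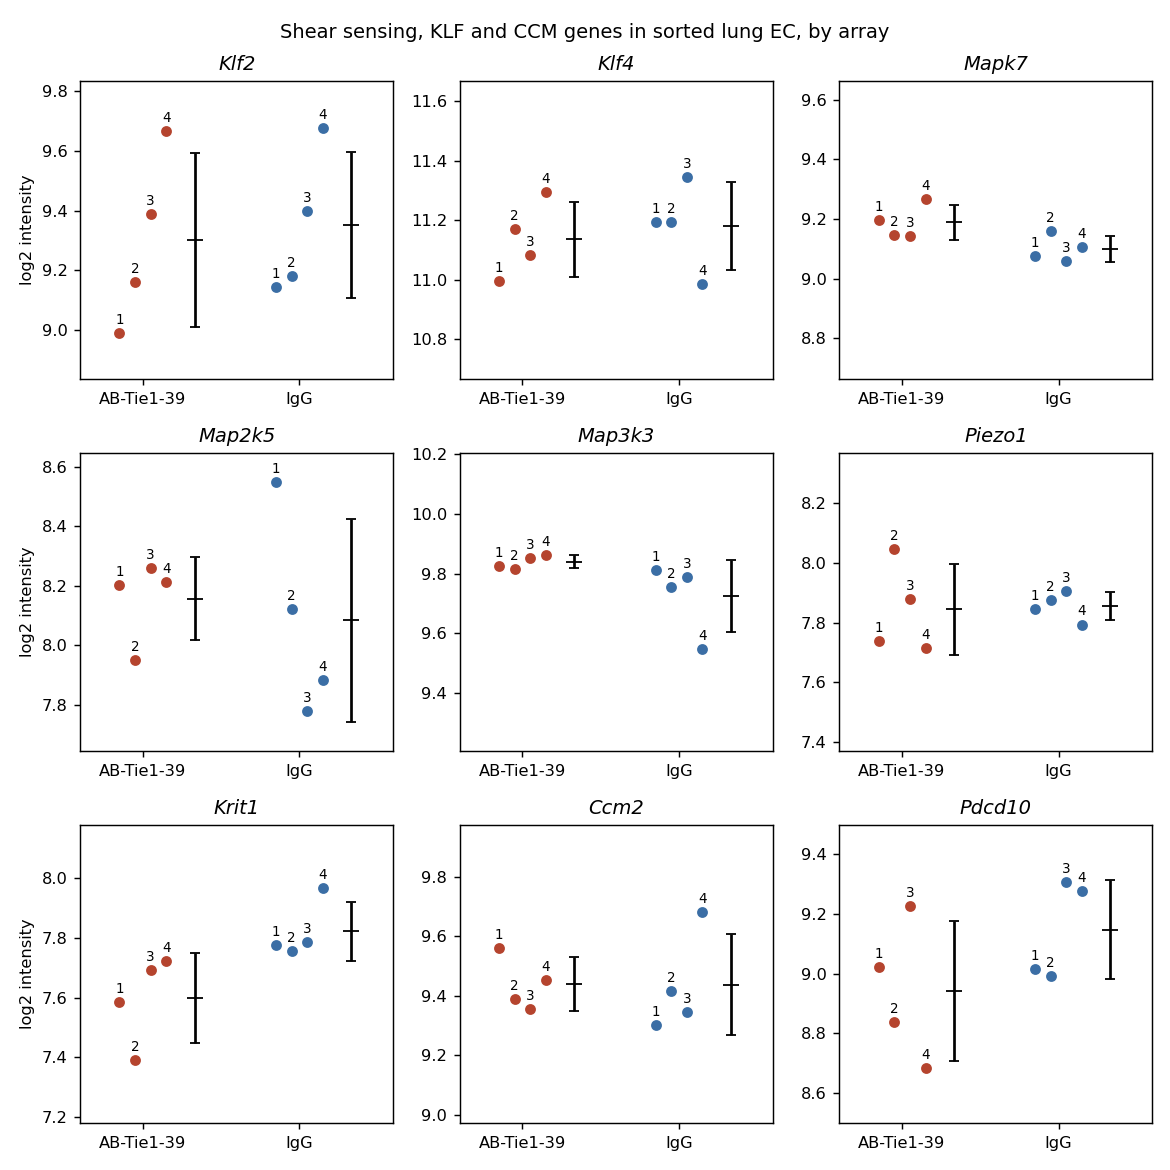
Log2 intensity of the 9 genes in each array, AB-Tie1-39 (red) left of IgG (blue), numbered by replicate, with the mean and SD of each group (n = 4). Vertical axes cover different ranges. The groups are separate only for Krit1 (7.39 to 7.72 in AB-Tie1-39 arrays, 7.76 to 7.97 in IgG arrays) and Map3k3 (9.82 to 9.86, against 9.55 to 9.81), and Klf2 spans nearly the same range in both groups.

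At the top of the pathway, Piezo1 (chromosome 8) measured 7.74, 8.05, 7.88 and 7.72 in the 4 AB-Tie1-39 arrays, against 7.85, 7.88, 7.90 and 7.79 in the IgG arrays (log2). The IgG values lay inside the range of the AB-Tie1-39 values, whose spread was larger (SD 0.15, against 0.047). The difference was -0.01 ± 0.09 (SE), with a 95% confidence interval of -0.20 to 0.18 (limma adjusted p = 0.999, exact permutation p = 0.943). A change in Piezo1 by more than 0.20 in either direction on the log2 scale was thus outside the interval.

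The 3 kinases showed small positive differences. Map3k3, encoding MEKK3, the kinase that CCM2 binds, measured 9.83, 9.82, 9.85 and 9.86 in AB-Tie1-39 arrays, against 9.81, 9.76, 9.79 and 9.55 in IgG arrays. Every AB-Tie1-39 array lay above every IgG array, and the AB-Tie1-39 values were almost the same (SD 0.022), whereas replicate 4 of the IgG group lay below the others. The difference was 0.11 ± 0.08 (SE, unadjusted limma p = 0.163, adjusted p = 0.965), and the exact two-sided permutation test gave 0.0286, the smallest p that 4 against 4 arrays allow. Without IgG replicate 4 the difference was 0.05 (limma adjusted p = 0.968). Within the low and the high hybridization controls it was 0.07 and 0.15.

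Map2k5, encoding MEK5, measured 8.20, 7.95, 8.26 and 8.21 in AB-Tie1-39 arrays, against 8.55, 8.12, 7.78 and 7.89 in IgG arrays. The AB-Tie1-39 values lay inside the range of the IgG values, which was the widest of the 9 genes in that group (SD 0.34). The difference was 0.07 ± 0.15 (SE, 95% confidence interval -0.27 to 0.41, limma adjusted p = 0.990, exact permutation p = 0.714), so that Map2k5 was less precisely measured than either other kinase. It was -0.10 within the low and 0.24 within the high hybridization controls.

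Mapk7, encoding ERK5, measured 9.20, 9.15, 9.14 and 9.27 in AB-Tie1-39 arrays, against 9.08, 9.16, 9.06 and 9.11 in IgG arrays. IgG replicate 2 lay above 2 of the AB-Tie1-39 arrays and the other IgG arrays lay below all of them. The difference was 0.09 ± 0.07 (SE, limma adjusted p = 0.965) with an exact two-sided permutation p of 0.0857, and it was 0.09 within either part of the split.

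**Figure D2:**
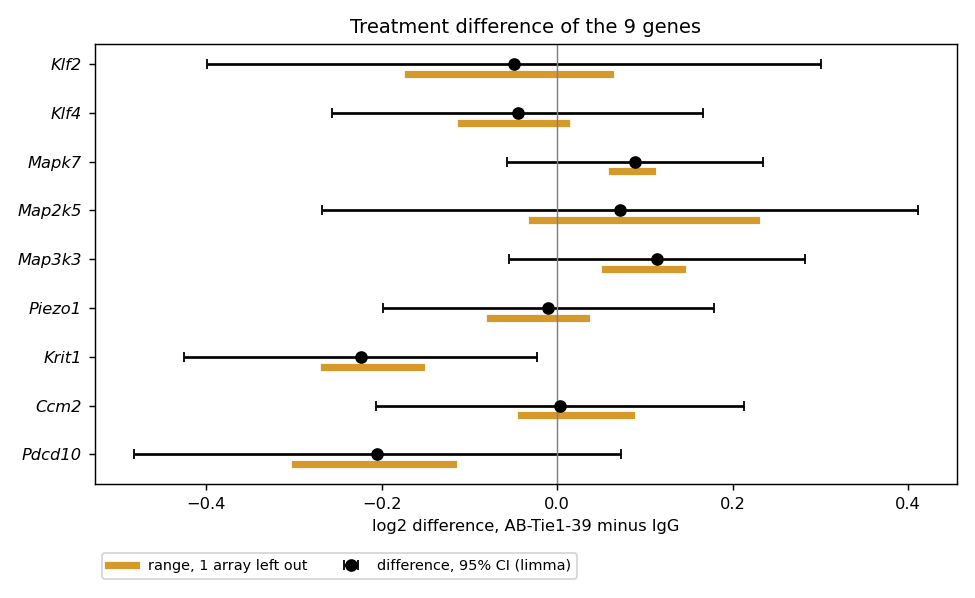
Difference in log2 intensity of each of the 9 genes, AB-Tie1-39 minus IgG (horizontal axis), with the limma 95% confidence interval (black) and the range of the difference when each of the 8 arrays was left out in turn (orange). Only the interval of Krit1 (-0.43 to -0.02) lies on 1 side of 0, and the intervals of Klf2 and Map2k5 are the widest (Klf2, -0.40 to 0.30).

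The transcription factors did not differ between the groups by more than their spread. Klf2 measured 8.99, 9.16, 9.39 and 9.67 in AB-Tie1-39 arrays, against 9.14, 9.18, 9.40 and 9.68 in IgG arrays. The values of both groups covered nearly the same range, with means of 9.30 ± 0.29 in AB-Tie1-39 arrays and 9.35 ± 0.25 in IgG arrays (SD, n = 4 each). The difference was -0.05 ± 0.16 (SE, 95% confidence interval -0.40 to 0.30, limma adjusted p = 0.996, exact permutation p = 0.771), which corresponds to an intensity ratio of 0.967 (0.758 to 1.23).

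Klf2 varied between arrays more than it differed between treatments. Its SD in AB-Tie1-39 arrays (0.29) compares with a median SD of 0.12 over all probe sets in the same group. In the arrays with low hybridization controls, AB-Tie1-39 measured 9.39 and 9.67 and IgG 9.14 and 9.18, a difference of 0.36. Within the high controls the order was opposite, with 8.99 and 9.16 in AB-Tie1-39 arrays and 9.40 and 9.68 in IgG arrays, a difference of -0.46. In a limma fit with the interaction of treatment and this split, added after these values were seen, the differences of Klf2 were 0.83 ± 0.20 (SE) apart with an unadjusted p of 0.00315 and an adjusted p of 0.746, and 5.32% of all probe sets had an unadjusted interaction p under 0.05. None passed an adjusted p of 0.05 (0%). Of the other 8 genes, none had an unadjusted interaction p under 0.05. This interaction is the contrast of replicates 3 and 4 with replicates 1 and 2 over both groups, in each of which Klf2 was higher in replicates 3 and 4, so it is no separate measure of treatment.

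Klf4 measured 11.00, 11.17, 11.08 and 11.29 in AB-Tie1-39 arrays, against 11.20, 11.19, 11.35 and 10.99 in IgG arrays. The groups overlapped, and the highest as well as the lowest of the 8 values belonged to IgG. The difference was -0.05 ± 0.10 (SE, 95% confidence interval -0.26 to 0.17, limma adjusted p = 0.990, exact permutation p = 0.629), -0.01 within the low and -0.08 within the high hybridization controls. The interval of Klf4 was narrower than that of Klf2, with an intensity ratio of 0.969 (0.837 to 1.12).

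Among the CCM genes, Krit1 had the largest difference in size of the 9 genes. KRIT1 is the scaffold that links the transmembrane protein HEG1 and the small GTPase RAP1 to CCM2. Krit1 (chromosome 5) measured 7.58, 7.39, 7.69 and 7.72 in AB-Tie1-39 arrays, against 7.78, 7.76, 7.79 and 7.97 in IgG arrays. All AB-Tie1-39 arrays lay below all IgG arrays, with a gap of 7.72 against 7.76 between the nearest arrays, and IgG replicate 4 stood apart above the other IgG arrays. The means were 7.60 ± 0.15 and 7.82 ± 0.10 in AB-Tie1-39 and IgG arrays (SD, n = 4 each).

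The difference of Krit1 was -0.22 ± 0.09 (SE, 95% confidence interval -0.43 to -0.02), an intensity ratio of 0.856 (0.744 to 0.985). The unadjusted limma p was 0.0327 and the adjusted p 0.930, and the exact two-sided permutation test gave 0.0286, the smallest p it can give. The unadjusted limma p was 0.0605 without AB-Tie1-39 replicate 1, 0.0976 without AB-Tie1-39 replicate 2 and 0.0875 without IgG replicate 4, with differences of -0.22, -0.16 and -0.18. It was -0.06 in the arrays with low and -0.39 in those with high hybridization controls (adjusted limma p of the interaction, 0.937).

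Pdcd10, which encodes the adaptor that joins the complex to the kinases of the GCKIII family, measured 9.02, 8.84, 9.23 and 8.68 in AB-Tie1-39 arrays, against 9.02, 8.99, 9.31 and 9.28 in IgG arrays. AB-Tie1-39 replicates 2 and 4 lay below all IgG arrays, while replicates 1 and 3 lay among them. The difference was -0.20 ± 0.13 (SE, 95% confidence interval -0.48 to 0.07, limma adjusted p = 0.955, exact permutation p = 0.200). Without AB-Tie1-39 replicate 3 it was -0.30 with an unadjusted limma p of 0.0299 and an adjusted p of 1.00, and within the low and the high hybridization controls it was -0.05 and -0.36.

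Ccm2, encoding the protein that binds MEKK3, measured 9.56, 9.39, 9.35 and 9.45 in AB-Tie1-39 arrays, against 9.30, 9.42, 9.35 and 9.68 in IgG arrays. The IgG arrays spanned the AB-Tie1-39 arrays. The difference was 0.00 ± 0.09 (SE, 95% confidence interval -0.21 to 0.21, limma adjusted p = 1.00, exact permutation p = 0.971), with 0.04 and -0.04 within the low and the high hybridization controls. The 3 proteins of the complex thus had transcripts with differences of -0.22, 0.00 and -0.20, and whether these differ from each other was not tested.

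Of 15 further genes around the CCM complex, 13 were measured, of which 7 had a higher and 6 a lower mean in AB-Tie1-39 arrays (median difference 0.02). At an unadjusted limma p under 0.05, 2 were higher and 1 was lower (2.17% and 3.15% of all probe sets), and none passed the adjusted threshold. With the exact Mann-Whitney test, which passes 0.05 here only without overlap (3.17% of all probe sets), 1 was higher and 0 were lower. The lower count was also 0 without AB-Tie1-39 replicate 4 or IgG replicate 3, for which the share of all probe sets is not given here. Heg1, encoding the transmembrane receptor that anchors KRIT1 at EC junctions, measured 11.96, 11.93, 11.95 and 11.87 in AB-Tie1-39 arrays, against 11.79, 11.75, 11.76 and 11.71 in IgG arrays. The groups did not overlap, in 1 of the 13 genes beside 3.17% of all probe sets, and the spread within each was small (SD 0.037 and 0.036). The difference was 0.18 ± 0.06 (SE, limma adjusted p = 0.896, exact permutation p = 0.0286).

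Tlnrd1, whose protein binds CCM2, measured 9.81, 10.00, 9.88 and 9.95 in AB-Tie1-39 arrays, against 9.52, 9.52, 9.86 and 9.57 in IgG arrays. IgG replicate 3 lay among the AB-Tie1-39 arrays and the other IgG arrays lay below them. The difference was 0.29 ± 0.09 (SE, limma adjusted p = 0.843, exact permutation p = 0.0571). Stk26, a GCKIII kinase that PDCD10 binds, is named besides because its values stood out and is below the median level, with means of 6.94 in AB-Tie1-39 arrays and 7.15 in IgG arrays and a difference of -0.22 (exact permutation p = 0.0571). The related kinase Stk24 had a difference of 0.10 ± 0.09 (SE) and Ccm2l, a CCM2 relative, one of 0.08 ± 0.06.

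**Figure D3:**
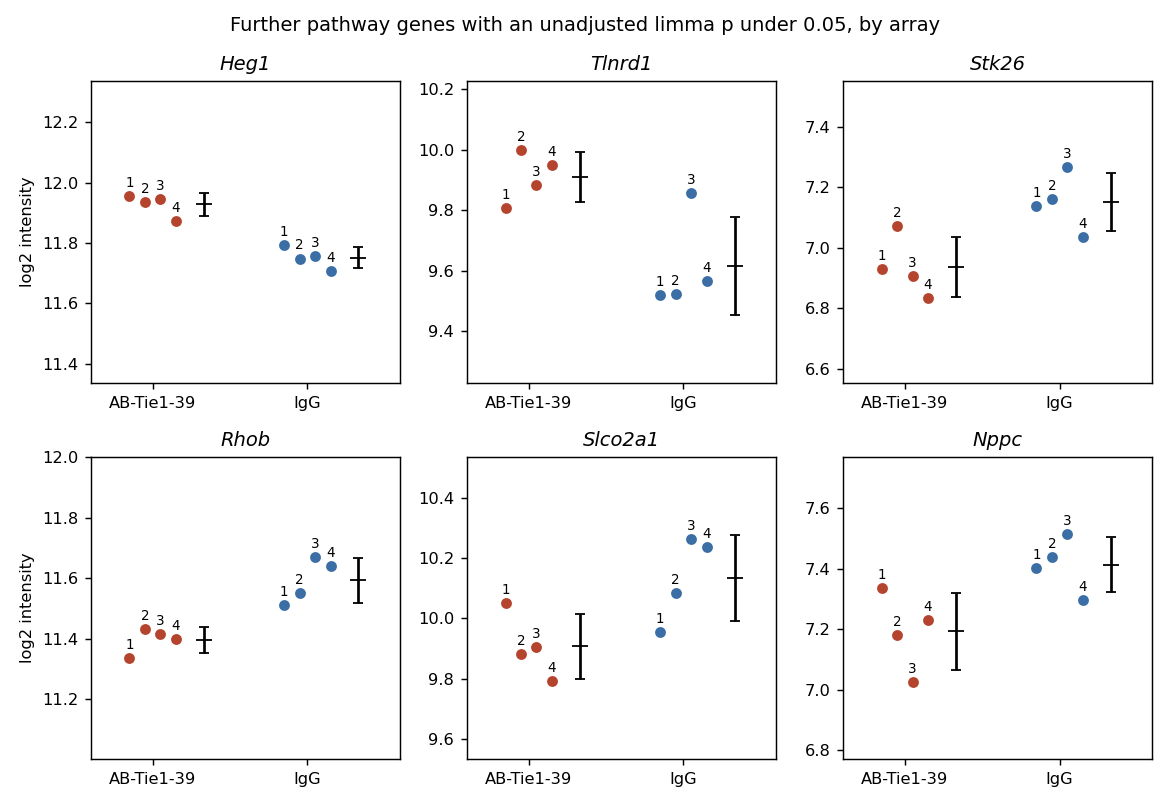
Log2 intensity by array of 6 genes around the pathway with an unadjusted limma p under 0.05, AB-Tie1-39 (red) left of IgG (blue), with the mean and SD of each group (n = 4). Vertical axes cover different ranges. The 6 genes were picked by their p from the lists, and Btg2 of the immediate early list, also under 0.05, is not shown. Among the 6, Heg1 and Rhob are the 2 genes with separate groups, as 3.17% of all probe sets have. Heg1 has all AB-Tie1-39 arrays above and Rhob all AB-Tie1-39 arrays below the IgG arrays.

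In the MEF2 arm, which joins ERK5 to the promoters of Klf2 and Klf4, 9 of 10 genes were measured, 6 with a higher and 3 with a lower mean, and none had an unadjusted limma p under 0.05. Their median difference was 0.05. The MEF2 genes themselves differed by 0.10 ± 0.07 (Mef2d), 0.07 ± 0.10 (Mef2a) and -0.10 ± 0.09 (Mef2c, SE each). Sqstm1, whose product p62 binds MEKK3 and MEK5, differed by 0.12 ± 0.09.

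Of 17 other flow sensors and transducers, 15 were measured, 10 with a higher and 5 with a lower mean, and again none had an unadjusted limma p under 0.05 (median difference 0.04). The VE-cadherin gene Cdh5, a part of the junctional mechanosensor, differed by 0.07 ± 0.08 (SE). Gna11, a G protein subunit that acts below flow-sensing receptors, differed by 0.09 ± 0.07. Cav1, which forms caveolae, had a difference of -0.26 ± 0.14 (exact permutation p = 0.200), and Flt4, encoding VEGFR3, one of 0.29 ± 0.27 with an SD of 0.48 in AB-Tie1-39 arrays and 0.51 in IgG arrays.

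Genes that KLF2 or KLF4 raise in EC showed no common direction, with 6 higher and 7 lower means of 13 measured (of 14 listed) and a median difference of -0.0037. Nos3, encoding endothelial nitric oxide synthase, measured 8.30, 8.53, 8.43 and 8.56 in AB-Tie1-39 arrays, against 8.44, 8.37, 8.54 and 8.37 in IgG arrays. The groups overlapped, and the difference was 0.02 ± 0.08 (SE, exact permutation p = 0.743). Thbd, encoding the anticoagulant thrombomodulin, averaged 11.82 ± 0.09 in both AB-Tie1-39 and IgG arrays (SD, n = 4 each).

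Podxl, encoding a sialomucin of the EC surface, and Aqp1, encoding a water channel, had differences of 0.12 ± 0.08 and 0.07 ± 0.09 (SE), and Plpp3, encoding a lipid phosphatase, one of -0.06 ± 0.06. Slco2a1, encoding a prostaglandin transporter, averaged 9.91 ± 0.11 in AB-Tie1-39 arrays and 10.13 ± 0.14 in IgG arrays (SD, n = 4 each, limma adjusted p = 0.930, exact permutation p = 0.0571), and its groups overlapped. Nppc, encoding C-type natriuretic peptide, lay below the median level and is named besides because of its values, with a difference of -0.22 (exact permutation p = 0.0571). Both were among the genes with an unadjusted limma p under 0.05, 2 lower and 0 higher on this list (3.15% and 2.17% of all probe sets). The lower count was 0 without AB-Tie1-39 replicate 3 and with the exact Mann-Whitney test, 3 without AB-Tie1-39 replicate 1, and 1 without AB-Tie1-39 replicates 2 or 4, IgG replicates 2 or 3 or with the replicate number as a block. With that block, 1141 of all probe sets had an unadjusted limma p under 0.05 in either direction, against 1182 in the main fit. Shares of all probe sets called with single arrays left out are not set beside these counts. Of the genes of this list with a promoter in the reference, 6 of 8 held a CACCC box (75.0%), beside 54.53% of all genes. Among genes that KLF2 or KLF4 lower, 3 of 5 held it (60.0%), and whether these shares differ was not tested.

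Of 9 genes that KLF2 or KLF4 lower, 8 were measured and 7 had a lower mean in AB-Tie1-39 arrays (51.8% of all probe sets did), with a median difference of -0.15, and none had an unadjusted limma p under 0.05. Without IgG replicate 4, 3 of them did, and without AB-Tie1-39 replicate 2 or IgG replicate 1, 1 did. The share of all probe sets called with the same arrays left out is not given here, so these counts do not single out the list. Gja1, encoding a gap junction protein, measured 7.97, 7.70, 8.14 and 8.10 in AB-Tie1-39 arrays, against 8.38, 8.46, 8.22 and 7.89 in IgG arrays, and IgG replicate 4 lay below 3 of the AB-Tie1-39 arrays. Its difference was -0.26 ± 0.14 (SE, limma adjusted p = 0.951, exact permutation p = 0.171). Edn1, encoding the vasoconstrictor endothelin-1, the chemokine gene Ccl2 and the leukocyte adhesion gene Sele differed by -0.14 ± 0.09, -0.17 ± 0.12 and -0.22 ± 0.16.

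Of 9 genes that are raised when CCM proteins are lost, 2 had a higher and 7 a lower mean in AB-Tie1-39 arrays (48.2% and 51.8% of all probe sets), with a median difference of -0.06. The median lay between -0.0076 without IgG replicate 1 and -0.12 without IgG replicate 4, and was -0.11 without AB-Tie1-39 replicate 1 or with array weights and -0.02 without AB-Tie1-39 replicate 2. Rhob, encoding a small GTPase, measured 11.34, 11.43, 11.42 and 11.40 in AB-Tie1-39 arrays, against 11.51, 11.55, 11.67 and 11.64 in IgG arrays. The groups did not overlap, in 1 of the 9 genes beside 3.17% of all probe sets. The difference of Rhob was -0.20 ± 0.07 (SE, limma adjusted p = 0.878, exact permutation p = 0.0286). At an unadjusted limma p under 0.05, 1 gene of this list was lower and 0 were higher (3.15% and 2.17% of all probe sets). Id1, a target of BMP signaling, differed by -0.12 ± 0.07, Angpt2, encoding the TIE2 ligand angiopoietin-2, by -0.09 ± 0.11, and Bmp6 by -0.01 ± 0.07.

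**Figure D4:**
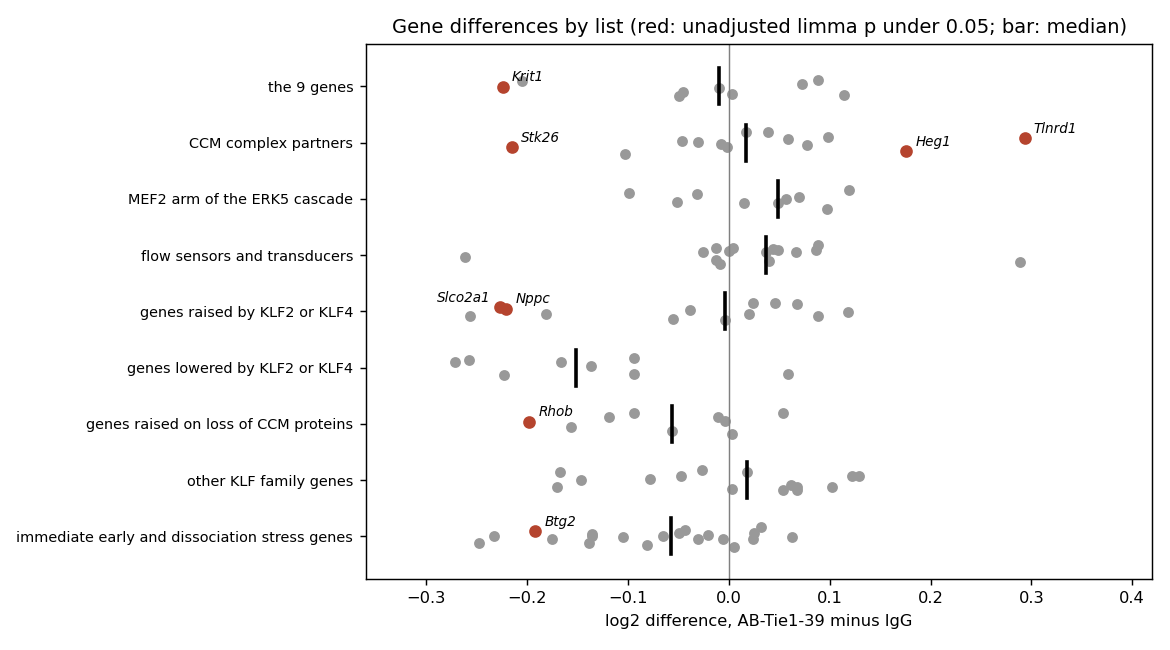
Difference in log2 intensity, AB-Tie1-39 minus IgG (horizontal axis), of each gene in the 9-gene pathway and in 8 lists of related genes (rows), with the median of each row as a bar and genes with an unadjusted limma p under 0.05 in red. Medians lie between -0.15 for genes lowered by KLF2 or KLF4 and 0.05 for the MEF2 arm.

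The other 15 members of the KLF family were all measured, 9 with a higher and 6 with a lower mean, with a median difference of 0.02 and no unadjusted limma p under 0.05. Klf6 measured 10.33, 10.61, 10.81 and 10.96 in AB-Tie1-39 arrays, against 10.72, 10.74, 10.83 and 11.09 in IgG arrays. As with Klf2, replicate 1 was lowest and replicate 4 highest in both groups. Its difference was -0.17 ± 0.14, and those of Klf9, Klf12 and Klf3 were -0.15 ± 0.15, 0.12 ± 0.14 and 0.10 ± 0.13 (SE each).

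Klf2 and Klf4 are also immediate early genes that respond to tissue digestion, so a list of 20 immediate early and dissociation stress genes was set beside them. Of these, 5 had a higher and 15 a lower mean in AB-Tie1-39 arrays (48.2% and 51.8% of all probe sets), with a median difference of -0.06. At an unadjusted limma p under 0.05, 1 was lower and 0 were higher (3.15% and 2.17% of all probe sets). The lower gene was the antiproliferative gene Btg2 (-0.19 ± 0.08, SE, exact permutation p = 0.0571). The lower count was 5 without AB-Tie1-39 replicate 1, 3 without IgG replicate 4 or with an intensity trend, and 0 without AB-Tie1-39 replicates 2 or 3 or IgG replicates 1, 2 or 3, with the exact Mann-Whitney test or with the replicate number as a block. Over all probe sets, 1172 had an unadjusted limma p under 0.05 in either direction with the trend and 1141 with the block, against 1182 in the main fit. Counts over all probe sets with single arrays left out are not set beside the list counts. The list mean was 10.14 to 10.32 in AB-Tie1-39 arrays and 10.24 to 10.37 in IgG arrays. The nuclear receptor gene Nr4a1 differed by -0.25 ± 0.11, Atf3 by -0.23 ± 0.13 and Fosb by -0.14 ± 0.07. Fos, Jun and Egr1 differed by -0.18 ± 0.10, -0.14 ± 0.17 and -0.10 ± 0.07.

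Over the 8 arrays, 5 relations of Klf2 and Klf4 were computed, and none passed the adjustment over the 5. Klf2 was lower in arrays with a higher mean of the immediate early list (Pearson r = -0.63, exact permutation p = 0.0917, adjusted p = 0.458, and Spearman rho = -0.71, exact permutation p = 0.0576, adjusted p = 0.288). Without the 2 arrays farthest from the median of the list, r was -0.65, and for deviations from the group means it was -0.82. Klf4 had r near 0 with the list (r = 0.09, exact permutation p = 0.839, rho = 0.14, exact permutation p = 0.752, adjusted p = 0.839 and 0.840), with r = 0.30 without the 2 farthest arrays.

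Klf2 and Klf4 were themselves weakly related (r = 0.15, exact permutation p = 0.709, adjusted p = 0.839, and rho = 0.10, exact permutation p = 0.840, adjusted p = 0.840), and r was 0.57 without replicate 4 of both groups. Over the 4 arrays of each group it was 0.82 in AB-Tie1-39 arrays and -0.56 in IgG arrays, and for deviations from the group means 0.14. With the mean of the genes they raise, Klf2 gave r = -0.36 (exact permutation p = 0.380, adjusted p = 0.839) and rho = -0.33 (p = 0.428, adjusted p = 0.840), and r = -0.33 without the 2 farthest arrays and -0.61 for deviations from the group means. Klf4 gave r = 0.20 (exact permutation p = 0.628, adjusted p = 0.839) and rho = 0.26 (p = 0.536, adjusted p = 0.840), and r = 0.03 without these arrays and 0.10 for deviations. All 5 relations are over the same 8 arrays, and r was not computed within the parts of the hybridization control split. The values within a treatment group rest on 4 arrays each and describe those arrays only.

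**Figure D5:**
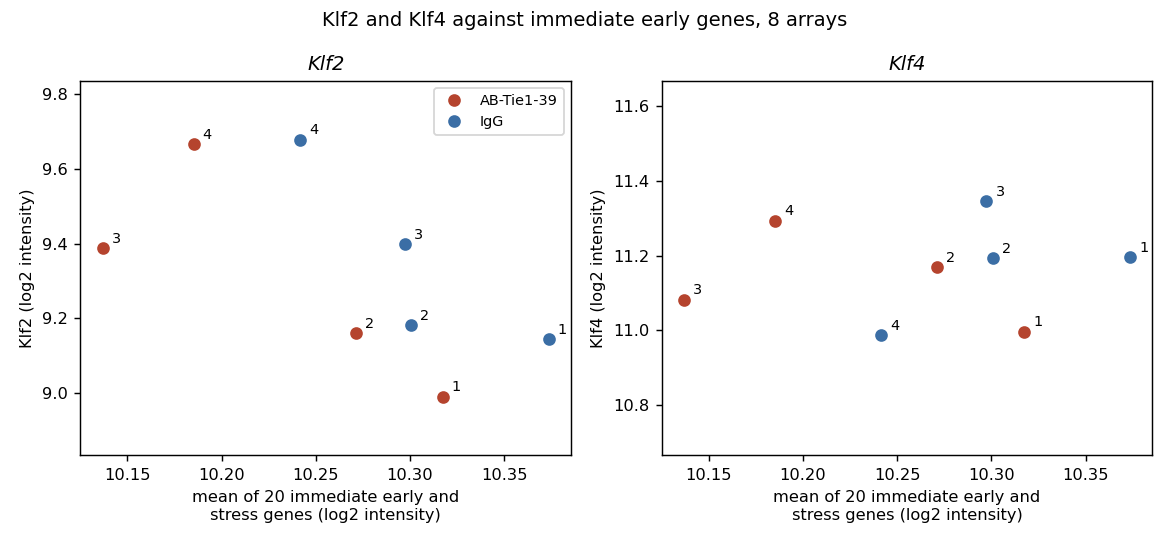
Log2 intensity of Klf2 (left) and Klf4 (right) against the mean log2 intensity of 20 immediate early and stress genes, 1 point per array, AB-Tie1-39 in red and IgG in blue, numbered by replicate. Klf2 is highest in replicate 4 of both groups and declines as the list mean increases (r = -0.63), whereas r is 0.09 for Klf4.

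Among 9673 genes compared, those with array patterns most like Klf2 were Abcf3 (r = 0.98), Tsc22d3 (0.95), Inpp5a (0.94), Cux1 (0.94) and Acsl4 (0.93). Klf4 was followed most closely by Pop5 (0.97), Dnajc10 (0.95), Tmem192 (0.95), Rchy1 (0.95) and N4bp2 (0.95), and Piezo1 by Bmp4 (0.96), Daglb (0.92), Eif4g3 (0.92), Fbln5 (0.92) and Defa43 (0.91). With 8 arrays and this many genes, correlations of this size describe the arrays only. No gene was among the 5 of more than 1 of the 3.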

How the data were processed

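RNA of sorted lung EC from 4 AB-Tie1-39-treated and 4 IgG-treated mice was labeled with a kit for very small RNA inputs before hybridization (Clariom S, mouse). The deposited table holds linear intensities that the authors had normalized between the arrays. The normalization method and the background correction are not given in the sources used here. The number of arrays limits the precision. Samples were grouped by their titles.

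Log2 of the intensities was fitted with limma 3.58.1 in R 4.3.3 (eBayes without trend, Benjamini-Hochberg over the 22204 tested probe sets, controls and probe sets without values left out). Single values were also tested with an exact two-sided permutation test over 70 arrangements. Symbols came from the platform annotation, and 2632 probe sets had none. The brightest probe set stood for a gene. Positions and promoters are those of RefSeq, GRCm38.p6. The scripts were tested on simulated data.

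Of 206 genes on the pathway and marker lists, 188 were measured. Named were all 9 genes, up to 4 genes per pathway list with the smallest unadjusted p at or above the median level, Nos3, Thbd, Fos, Jun, Egr1, any marker, and the 5 genes most like Klf2, Klf4 and Piezo1 in their array pattern, among those at or above the median level without predicted genes, small RNAs and chemosensory receptors. Stk26 and Nppc were named after their values were seen. The 9 genes and the lists were chosen with earlier results of these data known.

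Alternatives covered quantile normalization, centring on EC markers, a filter on dim probe sets, an intensity trend, array weights, the replicate number or the hybridization control split as blocks, leaving out single arrays, the Mann-Whitney test named in the study's statistics section and linear group means. The interaction with the hybridization control split was added after seeing the data.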

Additional observations from a re-analysis of the deposited data

Results flagged for a closer look

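A lone array stood apart from the others of its group in 2 of 34 groups of values examined (the 4 arrays of a treatment, for each gene or list), as a gap that took a large share of the whole range, a criterion that chance meets in about 1 in 20 groups. For Krit1, IgG replicate 4 was at 7.97 and the other IgG arrays were at 7.76 to 7.79, so that this gap was 0.867 of the range. For the mean of the flow sensors and transducers, AB-Tie1-39 replicate 1 was at 9.94 and the other AB-Tie1-39 arrays were at 10.09, a gap of 0.964 of the range.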

How the results depend on the processing

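No difference of the 9 genes passed an adjusted p of 0.05 under any alternative run. Differences close to 0 changed sign. With quantile normalization Piezo1 was at 0.0015 and Ccm2 at -0.0027, with centring on EC markers Ccm2 was at -0.0097, with linear group means it was at -0.0025, and with array weights Klf2 was at 0.033 and Map2k5 at -0.014. With each array left out in turn, differences were -0.17 to 0.060 for Klf2, -0.11 to 0.010 for Klf4, -0.029 to 0.23 for Map2k5, -0.077 to 0.033 for Piezo1 and -0.042 to 0.084 for Ccm2. Mapk7, Map3k3, Krit1 and Pdcd10 kept their sign under all alternatives. The count of the 9 genes at an unadjusted p under 0.05, 1 in the limma fit, was 2 with the exact Mann-Whitney test (Krit1 and Map3k3). With 4 against 4 arrays that test passes 0.05 only without overlap, so it repeats the count of genes without overlap (3.17% of all probe sets). With each array left out the count was 0 to 2. It was 0 without AB-Tie1-39 replicate 1, AB-Tie1-39 replicate 2 or IgG replicate 4, and 2 without AB-Tie1-39 replicate 3. The share of all probe sets called with the same arrays left out is not given here. Klf2 with Klf4 had r = 0.57 without the 2 farthest arrays, and Klf4 with the immediate early list had r = -0.016 for deviations from group means.

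Across all probe sets, same-numbered arrays correlated by -0.05 to 0.0066 in their deviations from the group means. Arrays with the same number lay on opposite sides of the hybridization control split, so these values cannot show whether the numbers pair the arrays. With the replicate number as a block, 1 of the 9 genes and 1141 probe sets had an unadjusted p under 0.05 (limma), against 1 and 1182 without it. Each of the 9 genes has 1 probe set, so the mean over probe sets was not run. With linear group means no test was run, so counts of calls have no value under it. With 4 arrays per group, the intervals were 0.15 to 0.35 wide on either side of the 9 genes' values. They are not adjusted for the number of probe sets, so they do not give the smallest difference that would pass an adjusted p of 0.05. Krit1, with a difference of -0.22 and an interval of -0.43 to -0.02, had an adjusted limma p of 0.930. The smallest difference that could be detected was not computed.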

Other observations

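Klf2 values of arrays with the same replicate number lay close together although the numbers of the 2 groups are not linked in the labels. AB-Tie1-39 and IgG arrays with the numbers 2, 3 and 4 differed by at most 0.021 (log2), whereas Klf2 ranged over 0.69 across the 8 arrays, and with number 1 the difference was -0.15. The deviations of Klf2 from the group means had r = 0.98 between same-numbered arrays, those of Klf6 r = 0.84, those of the immediate early list r = 0.71 and those of Klf4 r = -0.73, over 4 pairs each. The values of -0.05 to 0.0066 given above are of another kind, each taken across all probe sets for 1 pair of arrays. How often other genes reach such an r over 4 pairs was not computed. These pairs were noticed in the data, and what they share was not tested.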
